A study of Mus musculus with 21 samples.

Results

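Left ventricles of C57BL/6J mice under pressure overload and given the PDE9A inhibitor PF-04449613 were compared with left ventricles of sham-operated C57BL/6J mice, to see what of the response to overload was present with the drug on board. The 2 groups were taken from the sample labels and hold 11 of the 21 libraries of the study: 6 from mice with transverse aortic constriction (TAC) and the inhibitor, and 5 labelled sham with no drug named. TAC is a band around the aorta that makes the left ventricle pump against a raised pressure. The inhibitor was given for 4 weeks, starting at week 1 after surgery, so that constriction was in place before the drug. The 5 libraries from mice with TAC and no drug are used beside them. The remaining 5 libraries, from mice with TAC and a PDE5A inhibitor, enter only the filter on low counts, the scaling and the shared estimate of the spread. Each animal carries its own ear tag and gave 1 library of ventricular myocardium. No library is labelled as sham with the drug, so an effect of the drug alone and its effect under overload cannot be told apart. For age, sex, dose and vehicle nothing is stated in the labels.

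Sustained pressure overload makes cardiomyocytes grow, return to genes of the fetal heart such as those for beta-myosin and the natriuretic peptides, and lower the genes of mitochondrial fuel use, while fibroblasts lay down matrix. Cyclic GMP, made by guanylyl cyclases that nitric oxide or natriuretic peptides switch on, activates protein kinase G, which is known to restrain this growth. PDE9A is a phosphodiesterase that breaks down cyclic GMP and is known for acting on the pool made by the natriuretic peptide receptor.

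Total counts per library were 25.9 to 41.0 M in sham, 24.3 to 34.1 M with the inhibitor and 22.7 to 30.5 M in TAC. All levels below are CPM, the counts of a gene scaled by library size, and all changes are log2 fold changes with their standard error. The tissue label was borne out by the cardiomyocyte markers, of which 13 of 13 were measured, with a summed level of 190409.5 to 223850.5 CPM in sham and 156749 to 221949.8 CPM with the inhibitor. None of the 7 markers of lung and thymus passed the filter on low counts. Inhibitor libraries 1 and 4 had the highest shares of the ribosomal precursor Rn45s, at 0.326% and 0.416% of all counts, against 0.192% to 0.278% in the other sham, TAC and PDE9A inhibitor libraries. Animals of the inhibitor group also differed most from each other: the median gene had a standard deviation of 0.21 (log2 CPM) there, against 0.14 in sham and 0.18 in TAC.

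Hearts with overload and the inhibitor differed from sham hearts in 540 of the 14135 genes tested (3.82%) at an adjusted p under 0.05 by edgeR's quasi-likelihood test. Of these, 307 were higher with the inhibitor (2.17% of the genes tested) and 233 were lower (1.65%). By the same test, TAC without drug differed from sham in 3558 genes (25.2%), 1718 higher (12.2%) and 1840 lower (13.0%). At an unadjusted p under 0.05 the inhibitor comparison held 3849 genes (27.2%) and the TAC comparison 5592 (39.6%). The libraries of the 2 groups did not overlap, so that every inhibitor library lay on the same side of every sham library, in 491 genes (3.47%), 227 of them higher (1.61%) and 264 lower (1.87%) with the inhibitor. For TAC against sham the groups did not overlap in 2335 genes (16.5%), 1204 of them higher (8.52%) and 1131 lower. The median change over all genes tested was 0.0051 with the inhibitor and -0.0013 in TAC. These 2 comparisons share the 5 sham libraries, so their values are only set side by side. The difference between them was tested directly by comparing the inhibitor group with TAC, where 1 gene was called (0.00707%).

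The count of 540 rests on which animals are in the fit. It was 21 without sham library 3, 44 without sham library 2, 73 without sham library 1 and 88 without sham library 4. Leaving out inhibitor library 3 gave 29 genes, library 4 gave 41 and library 1 gave 162, whereas leaving out library 2, 5 or 6 gave 1340, 893 and 1814. What follows therefore gives the levels in each animal first. Counts of called list members are to be read beside the shares of all genes given above, which differ between the inhibitor and TAC comparisons. Matricellular genes and collagens were highest in libraries 3 and 4 and nearest to sham in library 6, and fetal genes exceeded sham most often in libraries 2 and 3, whereas 9 genes for endoplasmic reticulum chaperones were lower in all 6.

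**Figure D1:**
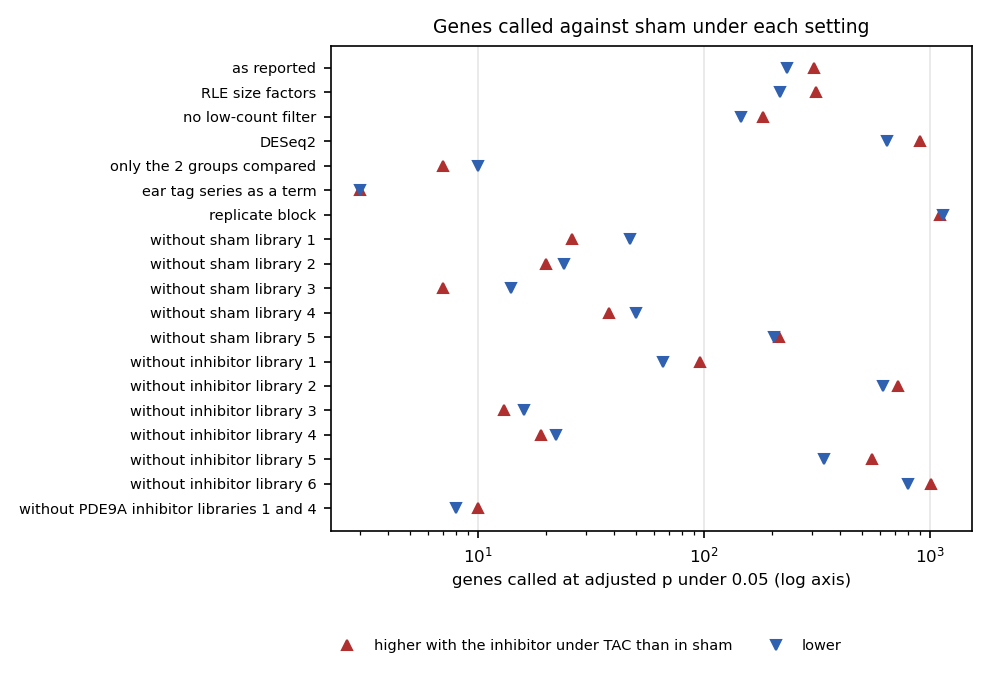
Number of genes called between the PDE9A inhibitor group under TAC and sham (log axis, adjusted p under 0.05), as reported and under each of the 18 alternatives, with red triangles for genes higher with the inhibitor and blue triangles for genes lower. The count ran from 6 with ear tag series as a term to 2241 with the replicate number as a block. This block also takes inhibitor library 6 out of the comparison, since no other library carries that number.

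The genes of the fetal and hypertrophic programme are a well known response of the heart to overload, and the stretches of DNA before the start sites of 4 of them are given first. These are RefSeq promoters on GRCm38.p6, from 250 bases before to 50 bases after the start site, read 5′ to 3′ on the gene's strand. Capitals mark matches on either strand to the MCAT motif (CATTCC), a site known for TEAD factors in muscle genes, to the GATA motif (AGATAA), and to the CArG box, a site known for serum response factor. The Myh7 promoter lies at chr14:54994577-54994876 on the minus strand, that of Nppb at chr4:147985650-147985949 on the plus strand, that of Acta1 at chr8:123894726-123895025 on the minus strand and that of Nppa at chr4:148000472-148000771 on the plus strand.
Myh7: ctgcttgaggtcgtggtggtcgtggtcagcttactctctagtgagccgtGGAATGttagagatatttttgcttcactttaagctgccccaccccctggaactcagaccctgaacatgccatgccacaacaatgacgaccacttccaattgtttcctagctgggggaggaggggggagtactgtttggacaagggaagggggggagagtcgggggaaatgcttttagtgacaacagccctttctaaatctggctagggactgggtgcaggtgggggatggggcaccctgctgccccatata
Nppb: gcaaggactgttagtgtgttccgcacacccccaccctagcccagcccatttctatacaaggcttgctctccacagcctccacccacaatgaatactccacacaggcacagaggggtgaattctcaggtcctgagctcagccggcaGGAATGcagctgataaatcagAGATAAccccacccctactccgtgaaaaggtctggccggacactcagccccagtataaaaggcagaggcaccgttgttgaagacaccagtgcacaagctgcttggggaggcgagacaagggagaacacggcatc
Acta1: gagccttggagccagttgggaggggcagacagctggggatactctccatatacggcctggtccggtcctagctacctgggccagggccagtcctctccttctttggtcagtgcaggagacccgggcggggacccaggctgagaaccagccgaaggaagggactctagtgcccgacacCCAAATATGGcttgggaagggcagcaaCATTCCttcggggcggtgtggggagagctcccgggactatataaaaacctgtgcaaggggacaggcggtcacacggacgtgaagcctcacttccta
Nppa: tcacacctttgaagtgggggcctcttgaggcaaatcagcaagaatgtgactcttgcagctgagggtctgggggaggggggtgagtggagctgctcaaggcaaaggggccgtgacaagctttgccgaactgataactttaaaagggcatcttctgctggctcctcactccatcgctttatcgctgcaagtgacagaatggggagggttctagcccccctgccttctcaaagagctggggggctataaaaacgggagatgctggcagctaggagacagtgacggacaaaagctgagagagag
The windows of Myh7, Nppb and Acta1 each hold 1 MCAT match, Nppb adds 1 GATA match and Acta1 adds 1 CArG match, with no overlap between matches. Among 32851 promoters of the same length, 14.7% hold MCAT, 11.2% hold GATA and 1.63% hold CArG. The Nppa window holds none of these letters, and a second Myh7 start site in the table, whose window overlaps the first, holds none either.

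Myh7 encodes the beta-myosin heavy chain, the slow motor protein of the fetal mouse ventricle (chromosome 14, 54970684 to 54994626, minus strand, protein-coding, as annotated by GENCODE M21 on GRCm38). Its levels in sham libraries 1 to 5 were 199, 326, 257, 198 and 239.7 CPM, and in inhibitor libraries 1 to 6 they were 2955, 1747, 9100.1, 4401, 592 and 432 CPM. Every inhibitor library lay above every sham library, with library 3 above the TAC range of 2783 to 8669.7 CPM and libraries 5 and 6 far below it. The rise of 3.72 ± 0.82 passed the test (adjusted p = 0.0273), beside 4.56 ± 0.86 in TAC. Myh7 shares long near-identical stretches with its neighbour Myh6, and this locus also carries an antisense transcript, while the strand setting of the counting was not stated, so its level is uncertain to that extent.

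Acta1, the skeletal muscle alpha-actin that the fetal heart also uses (chromosome 8, 123891769 to 123894751, minus strand), was 305, 389, 435, 482 and 259.9 CPM in sham and 703, 4591, 5485, 459, 1365 and 711 CPM with the inhibitor. Libraries 2 and 3 exceeded the TAC range of 1119 to 4168 CPM, library 4 was inside the sham range, and the others lay above sham. The rise of 2.57 ± 0.61 passed the test (adjusted p = 0.031), although the groups overlapped. Ankrd1, a titin-linked protein that responds to stretch (chromosome 19, 36111961 to 36120099, minus strand), was 1018 to 1478 CPM in sham and 2819, 4387, 6181, 4379, 1882 and 1686 CPM with the inhibitor. All 6 inhibitor libraries lay above sham, with a rise of 1.43 ± 0.29 (adjusted p = 0.0246). Its relative Ankrd23 rose by 0.71 ± 0.19 (adjusted p = 0.0467), from 367 to 405 CPM to 416 to 847 CPM, median 619, again without overlap.

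The natriuretic peptides, hormones that a stretched heart releases and that act through cyclic GMP, were split by the test. Nppb (chromosome 4, 147985788 to 147987205, plus strand) was 177, 190.3, 195, 146 and 139.9 CPM in sham and 173, 567, 683, 613, 249.9 and 311 CPM with the inhibitor, so library 1 sat inside the sham range and the other 5 above it. Its rise was 1.35 ± 0.37 (adjusted p = 0.0476), beside 2.16 ± 0.39 in TAC. Nppa (chromosome 4, 148000722 to 148002079, plus strand) was 59.8 to 299.5 CPM in sham and was 346, 718, 3089.6, 1196, 268 and 277 CPM with the inhibitor, where library 3 stood alone at the top and libraries 5 and 6 fell inside the sham range. At 2.52 ± 0.74 its difference did not pass the test (adjusted p = 0.0576), while it rose by 3.98 ± 0.81 in TAC. Xirp2, an actin-binding protein of the cell junctions of heart muscle, also rose in TAC (1.83) and missed the threshold with the inhibitor (0.97 ± 0.36, adjusted p = 0.098), although all 6 inhibitor libraries, at 2451 to 9335 CPM, median 3214, exceeded the sham range of 2072 to 2363 CPM.

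Over the 19 tested members of the fetal and hypertrophic list, 5 rose with the inhibitor and none fell, with a median change of 0.71. In TAC 14 rose and 1 fell, with a median of 1.57. Between 8 and 16 of the 19 exceeded the highest sham level in each inhibitor library, 8 in library 5 and 16 in libraries 2 and 3. These are 42.1% to 84.2% of the list, where 17.8% to 34.3% of all genes tested exceeded the highest sham level in the same libraries. No member was called without sham library 1, 2 or 3 or inhibitor library 3, and 7 were without inhibitor library 6. Over the 11 fits that left out 1 library of either group, the adjusted p of Myh7 ran from 0.00841 to 0.0732, that of Ankrd1 from 0.00484 to 0.0638 and that of Acta1 from 0.0126 to 0.0804.

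**Figure D2:**
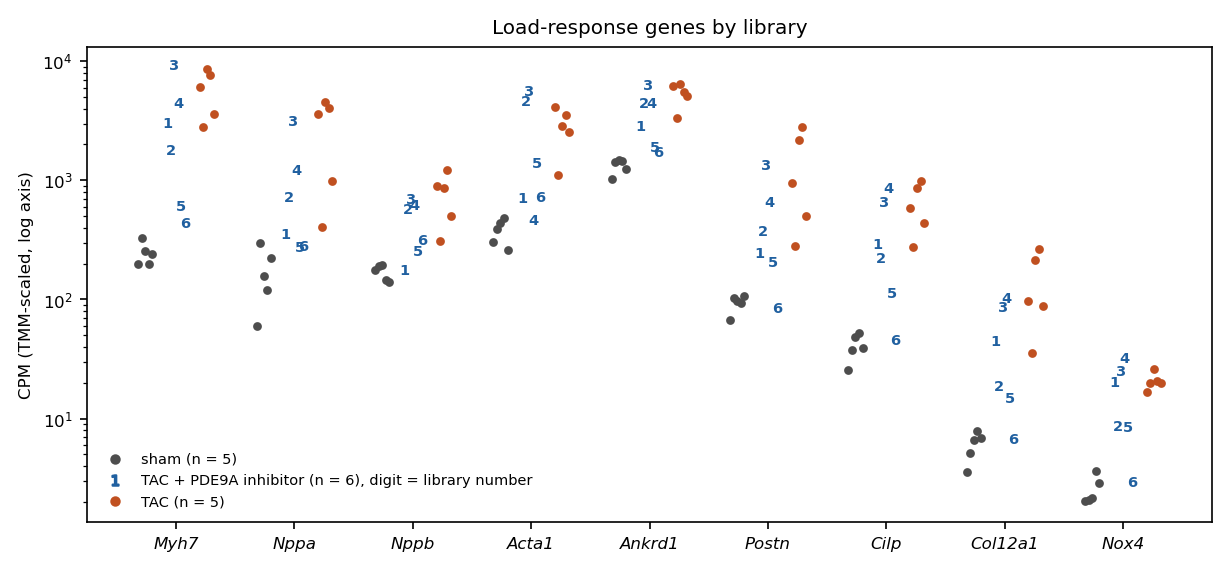
Levels (CPM, log axis) of 9 load-response genes in each sham library (grey), each PDE9A inhibitor library (blue digits, the library number) and each TAC library (orange). Library 3 sits in or near the TAC range for all 9 genes and library 6 at or near the sham range for most of them.

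Matrix genes formed the largest block of rises. Among 37 tested matricellular, elastic and cross-linking genes, 14 rose with the inhibitor and none fell, with a median change of 1.26. In TAC 33 of the 37 rose, with a median of 1.77. In inhibitor libraries 1 to 6 in turn, 31, 30, 36, 36, 24 and 2 of the 37 exceeded the highest sham level, against 3681, 3258, 4194, 4849, 2767 and 2515 of all 14135 genes. Library 6 thus lay within or below the sham range for nearly all of the list, and only 1 of the 37 had no overlap between the groups.

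Cilp, a matrix protein first known from cartilage and made by activated heart fibroblasts (chromosome 9, 65265180 to 65280605, plus strand), was 25.6, 37.5, 48.2, 52 and 38.9 CPM in sham and 287, 217, 648, 852, 110.3 and 45.2 CPM with the inhibitor. Libraries 1, 3 and 4 were inside the TAC range of 276 to 993 CPM and library 6 inside the sham range. It rose by 3.15 ± 0.61 (adjusted p = 0.0193). Thbs4, a thrombospondin induced in loaded muscle, rose by 3.12 ± 0.68 (adjusted p = 0.0273), from 5.86 to 16.2 CPM to 13.4 to 204 CPM, median 65.6. Mfap4, a protein of elastic fibres, rose by 2.66 ± 0.54 (adjusted p = 0.0245), and Wisp2, a member of the CCN family of matricellular proteins, by 2.08 ± 0.43 (adjusted p = 0.0254). Wisp2 was the 1 member whose inhibitor libraries, at 15.1 to 77 CPM, all exceeded the sham range of 6.27 to 13.9 CPM. The further rises were Fmod (4.12), Comp (4.01), Cthrc1 (3.47), Loxl3 (1.86), Eln (1.79), Bgn (1.46), Mmp2 (1.41), Prelp (1.33), Aspn (1.18) and Dcn (0.64), which span small proteoglycans, elastin, a collagen cross-linking enzyme and a gelatinase.

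Periostin (Postn), the matricellular protein used most often to mark activated fibroblasts, was 67.5 to 107 CPM in sham and 241, 370.3, 1322, 640.4, 202 and 83.3 CPM with the inhibitor, with library 6 inside the sham range. Its change of 2.35 ± 0.66 narrowly missed the threshold (adjusted p = 0.0501), beside 3.85 ± 0.72 in TAC. Spp1, osteopontin, was 2.20 ± 0.68 with the inhibitor (adjusted p = 0.0654) and 3.86 ± 0.70 in TAC, at 0.377 to 6.9 CPM in the inhibitor libraries.

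Of 20 collagen genes, 3 rose with the inhibitor, with a median change of 1.38, and 17 rose in TAC, with a median of 1.81. The 3 were Col8a2, a chain of a network-forming collagen (3.84 ± 0.88, adjusted p = 0.0286), and the fibril-associated collagens Col12a1 (2.89 ± 0.70, adjusted p = 0.0317) and Col14a1 (1.89 ± 0.44, adjusted p = 0.0301). Col12a1 levels were 3.59, 5.15, 6.59, 7.91 and 6.93 CPM in sham and 44, 18.5, 84.5, 101, 14.7 and 6.66 CPM with the inhibitor, and only library 6 reached into the sham range. Col1a1, a chain of the main fibril collagen of scar, was 56.3 to 107 CPM in sham and 160.0, 137, 433, 781, 105 and 77.1 CPM with the inhibitor, where libraries 5 and 6 lay within sham and library 4 above every TAC library. It did not pass the test (1.73 ± 0.54, adjusted p = 0.0664), nor did Col8a1 (1.48 ± 0.49, adjusted p = 0.0744) or Col22a1 (2.32 ± 0.67, adjusted p = 0.0529), all of which rose in TAC.

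Members of the TGF-beta, BMP and activin list, the growth factors that drive matrix production, included 5 rises and no fall among 32 tested, with a median change of 0.50. Ltbp2, which binds elastic microfibrils, rose by 3.35 ± 0.81 (adjusted p = 0.0318), from 5.33 to 16.4 CPM to 10.5 to 302 CPM, median 54.1. Tgfbi, a matrix protein induced by TGF-beta, rose by 0.82 ± 0.16 (adjusted p = 0.0184), with all 6 inhibitor libraries (29.3 to 58.2 CPM) above sham (21 to 26.6 CPM). The ligands Tgfb3 (1.31 ± 0.36, adjusted p = 0.0481) and Bmp4 (0.60 ± 0.16, adjusted p = 0.0477) and the latent binding protein Ltbp4 (0.88) completed the 5. The ligand Tgfb2 (1.13 ± 0.38, adjusted p = 0.0811) and the stress cytokine Gdf15 (2.75 ± 0.97, adjusted p = 0.0892) did not pass, and both rose in TAC, where 14 of the 32 rose and 2 fell.

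These matrix counts depend on single animals. No matricellular gene and no collagen was called without inhibitor library 3 or 4 or without sham library 1, 2 or 3, and 29 and 12 were called without inhibitor library 6. The 5 TGF-beta calls dropped to 1 without inhibitor library 1, 3 or 4 or any 1 sham library other than 3, and to none without sham library 3. Markers of fibroblasts moved with them, but that list shares genes with the matrix lists, Dcn and Col1a1 among them. Of its 12 markers 2 rose with the inhibitor and 9 in TAC. Their summed level was 2619.9 to 3286 CPM in sham, 3159.5 to 7744 CPM with the inhibitor and 4359 to 6704 CPM in TAC. Of 10 activated fibroblast markers, 6 of which are also in the matricellular list, 4 rose with the inhibitor (Cthrc1, Comp, Cilp and Thbs4) and 9 in TAC, with summed levels of 223 to 316, 284 to 2428 and 776 to 4798 CPM in the same order. Cartilage and tendon markers, a type not expected in ventricle, gave 2 rises of 7 tested (Fmod and Comp, which heart matrix also holds). All 7 were higher with the inhibitor, with a median change of 2.95, and 6 rose in TAC. Chodl was at 0 counts in 3 sham libraries, Tnmd in 2 and Acan in 1. The part of these cells in the rises was not tested. More cells of a type and more RNA per cell cannot be told apart in bulk tissue.

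**Figure D3:**
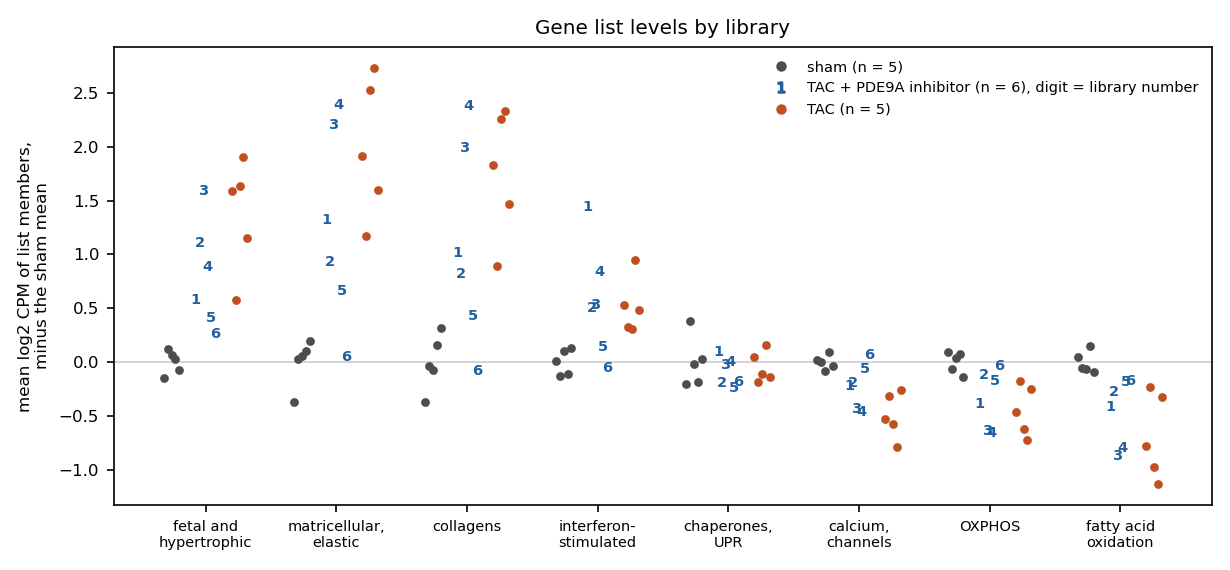
Mean log2 CPM of the tested members of 8 gene lists in each library, minus the sham mean, for sham (grey), PDE9A inhibitor (blue digits, the library number) and TAC (orange). Libraries 3 and 4 reach the TAC values for matricellular, oxidative phosphorylation and fatty acid genes, library 6 lies nearest to sham for these 3 lists and the interferon-stimulated genes, and library 1 has the highest interferon score.

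The pathway that the drug acts on showed 3 rises and 2 falls among 31 tested cyclic GMP genes, with a median change of 0.073, and 4 rises and 6 falls in TAC. Of all genes tested, 2.17% rose and 1.65% fell with the inhibitor, and 12.2% rose and 13.0% fell in TAC. Prkg1, the protein kinase G that cyclic GMP activates (chromosome 19, 30564489 to 31765033, minus strand), was 34.6, 33.9, 33.9, 32.4 and 31.7 CPM in sham and 45.1, 44.3, 44.8, 44.5, 42.1 and 36.5 CPM with the inhibitor. All 6 inhibitor libraries were above sham, 5 of them within a narrow band and library 6 nearest to sham. The rise was 0.36 ± 0.077 (adjusted p = 0.0265), beside 0.35 ± 0.08 in TAC.

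Rgs2, a brake on Gq-coupled receptors that protein kinase G is known to activate (chromosome 1, 143999338 to 144004161, minus strand), was 45.2, 49.4, 38.1, 35.9 and 44.7 CPM in sham and 28.9, 17.8, 9.75, 15.7, 27.7 and 25.3 CPM with the inhibitor. Every inhibitor library was below every sham library, and it fell by 1.03 (SE 0.26, adjusted p = 0.034), beside -1.53 ± 0.28 in TAC. Corin, the protease that cuts the precursor of the atrial peptide, was 315 to 357 CPM in sham and 203 to 336 CPM with the inhibitor, median 238, with library 6 alone inside the sham range (-0.44 ± 0.11, adjusted p = 0.0336). Kcnma1, the large-conductance calcium-activated potassium channel, rose by 3.05 ± 0.84, and Nos1, neuronal nitric oxide synthase, by 2.56 ± 0.65 (adjusted p = 0.0359). Nos1 rests on few counts, at 0.0756, 0.0701, 0.0372, 0.265 and 0.116 CPM in sham and 0.32, 1.23, 1.4, 0.265, 0.239 and 0.879 CPM with the inhibitor, where 3 counts stand for 0.0796 to 0.126 CPM in the libraries of these groups. In a fit of these 2 groups alone Nos1 did not pass the filter on low counts, so its rise was not tested there.

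Neither the drug's own target nor the related receptor passed the test. Pde9a was 2.12, 2.56, 2.38, 2.63 and 3.45 CPM in sham and 1.49, 3.31, 3.77, 2.01, 1.95 and 2.05 CPM with the inhibitor (-0.11 ± 0.26, adjusted p = 0.815), with a TAC range of 2.62 to 4.63 CPM. Pde5a, a phosphodiesterase for the nitric oxide pool of cyclic GMP, was 8.57 to 12 CPM and 9.08 to 12.8 CPM (0.057 ± 0.11, adjusted p = 0.747). Npr1, the natriuretic peptide receptor that makes cyclic GMP, was 15.4 to 22.2 CPM and 15.2 to 20.1 CPM (-0.03 ± 0.10, adjusted p = 0.874). The signs of these 3 changes turned when single libraries were left out. Furin (-0.13 ± 0.091, adjusted p = 0.345) and Pde3a (-0.17 ± 0.13, adjusted p = 0.429), which fell in TAC (-0.46 and -0.57), did not pass the test with the inhibitor. The calls of Prkg1, Rgs2, Corin, Nos1 and Kcnma1 each ended without sham library 2, 3 or 4 or inhibitor library 3 or 4, with adjusted p up to 0.0645 for Prkg1, 0.0875 for Rgs2, 0.0855 for Corin and 0.0971 for Nos1.

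A group of 9 genes for chaperones of the endoplasmic reticulum, which fold secreted and membrane proteins, was lower in all 6 inhibitor libraries than in any sham library. Of 27 tested genes of the unfolded protein response and chaperones, 9 fell and none rose, with a median change of -0.21, and in TAC 8 fell and none rose, with a median of -0.15. The 9 that fell were also the members whose groups did not overlap, where 1.87% of all genes were lower without overlap. In inhibitor libraries 1 to 6 in turn, 12, 15, 13, 12, 12 and 12 of the 27 lay below the lowest sham level, against 17.7% to 35.4% of all genes tested. The 9 genes without overlap are part of each count, so its evenness over libraries is partly fixed by them. In the same libraries 6, 1, 6, 4, 4 and 4 of the 27 lay above the highest sham level. The mean log2 CPM of all 27, minus the sham mean, overlapped: -0.24 to 0.090 with the inhibitor and -0.20 to 0.38 in sham.

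Hsp90b1, the HSP90 of the endoplasmic reticulum (chromosome 10, 86690209 to 86705509, minus strand), was 406, 513, 473, 414 and 555 CPM in sham and 348, 351, 323, 344, 365 and 359.8 CPM with the inhibitor. The 6 inhibitor values lay close together and below all 5 sham values. The change was -0.44 ± 0.069 (adjusted p = 0.00818), beside -0.39 ± 0.072 in TAC. Hspa5, the HSP70 chaperone known as BiP (chromosome 2, 34771970 to 34777547, plus strand), was 716, 796, 691, 615 and 899.7 CPM in sham and 484, 552, 376, 421, 538 and 575 CPM with the inhibitor, and fell by 0.60 (adjusted p = 0.00988). Manf, a secreted partner of BiP (chromosome 9, 106838312 to 106891979, minus strand), was 27.5, 36.1, 30.5, 23.2 and 41.9 CPM in sham and 19.1, 21.1, 18.5, 21.9, 20.1 and 21 CPM with the inhibitor, with a change of -0.65 ± 0.11 (adjusted p = 0.00988). Sham library 5 had the highest level of all 3 genes, and the lowest sham value still exceeded the highest inhibitor value for each.

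Sdf2l1, a component of the chaperone complex around BiP (chromosome 16, 17130138 to 17132383, minus strand), showed the steepest change of the group, at 3.71, 5.11, 6.03, 4.35 and 9.87 CPM in sham and 2.88, 3.31, 2.54, 3.41, 2.47 and 2.93 CPM with the inhibitor (-0.99 ± 0.21, adjusted p = 0.0257). Its TAC levels of 2.47 to 4.66 CPM overlapped both, and TAC did not pass the test (-0.54 ± 0.21, adjusted p = 0.0672). The lectin chaperones Calr (-0.35) and Canx (-0.27), the disulfide isomerases Pdia4 (-0.44) and Pdia6 (-0.47) and the HSP70 relative Hyou1 (-0.43) made up the remaining falls. Herpud1 and Dnajb9, which serve the removal and folding of proteins there, fell in TAC (-0.79 and -0.31) and missed the threshold with the inhibitor (-0.44 ± 0.19, adjusted p = 0.143, and -0.21 ± 0.10, adjusted p = 0.193). The 9 calls dropped to 3 without sham library 2 or 3 or inhibitor library 3 or 4, to 1 without inhibitor libraries 1 and 4 together, and to none in a fit of the 2 groups alone or with ear tag series as a term. Hsp90b1, Hspa5 and Manf were called in each of the 11 fits that left out 1 library, with adjusted p up to 0.0367, 0.0367 and 0.0434.

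**Figure D4:**
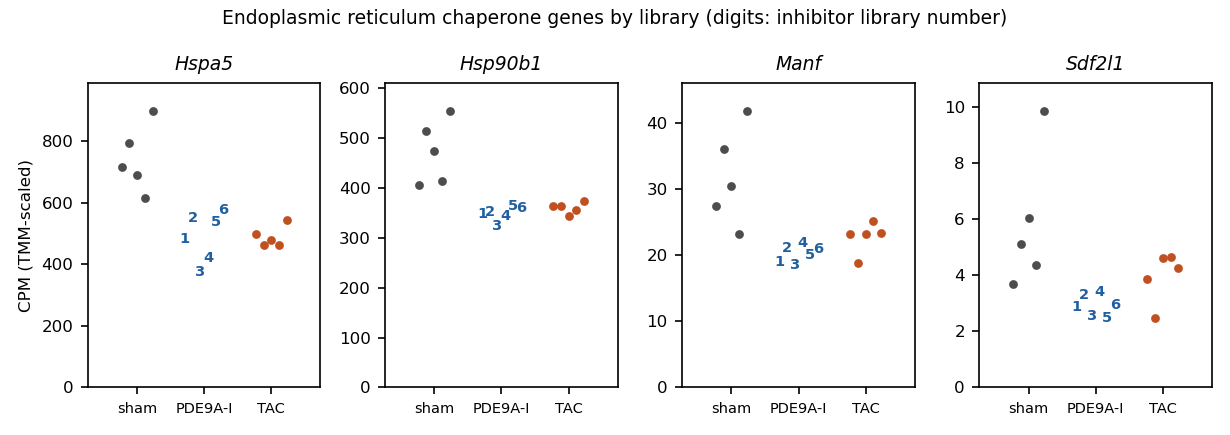
Levels (CPM, linear axes from 0) of the chaperone genes Hspa5, Hsp90b1, Manf and Sdf2l1 in each sham library, each PDE9A inhibitor library (digits, the library number) and each TAC library. All 6 inhibitor libraries lie below all 5 sham libraries for each of the 4 genes.

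Genes of fuel use were lower in most inhibitor libraries, but few passed the test. Among 33 tested genes of fatty acid uptake and oxidation, 1 fell with the inhibitor and none rose, with a median change of -0.38, whereas 28 fell in TAC, with a median of -0.57. For 12 of the 33 every inhibitor library was nevertheless below every sham library, where this held for 1.87% of all genes tested. In inhibitor libraries 1 to 6 in turn, 31, 23, 32, 32, 15 and 16 of the 33 lay below the lowest sham level, against 4309, 3134, 4266, 5009, 2874 and 2497 of all 14135 genes. Cardiomyocyte markers moved with them: 9, 4, 10, 11, 2 and 0 of 13 lay below the lowest sham level in the same libraries, and 10 of the 13 had a negative change, with a median of -0.20, though none was called. The part of cardiomyocyte content in the lower fuel genes was not tested.

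Cd36, the fatty acid transporter of the cell surface (chromosome 5, 17781690 to 17888801, minus strand), was the member called, at 2623, 2656, 2727, 2725 and 2474 CPM in sham and 1850.1, 2284, 1649, 1579, 2273 and 2121 CPM with the inhibitor. All 6 inhibitor libraries were lower, with a change of -0.43 ± 0.11 (adjusted p = 0.0365), and the call ended without any 1 of sham libraries 1 to 4 or inhibitor libraries 1, 3 and 4 (adjusted p of 0.0213 to 0.0969 over the leave-one-out fits). Etfb, a subunit of the flavoprotein that takes electrons from fatty acid oxidation, was 465 to 539 CPM in sham and 232 to 446 CPM with the inhibitor, without overlap (-0.55 ± 0.18, adjusted p = 0.0684). Ech1, an enzyme for unsaturated fatty acids, was 1239 to 1387 CPM and 487 to 1076 CPM, also without overlap (-0.65 ± 0.23, adjusted p = 0.0858). Both fell in TAC, with log2 changes of -0.90 and -0.98.

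None of 36 nuclear-encoded oxidative phosphorylation genes was called with the inhibitor, with a median change of -0.31, while 33 fell in TAC, with a median of -0.43. Shares over all genes tested were 3.82% called with the inhibitor and 13.0% falling in TAC. The libraries divided sharply: 36 of 36 lay below the lowest sham level in libraries 1, 3 and 4, 24 in library 5, 13 in library 2 and 2 in library 6. Cox6c, a subunit of cytochrome oxidase, had the lowest p, at 638 to 727 CPM in sham and 413 to 635 CPM with the inhibitor, without overlap (-0.39 ± 0.11, adjusted p = 0.0513). Its partner Cox7b was close (-0.39 ± 0.11, adjusted p = 0.0519). Without inhibitor library 6, 27 of the 36 fell, and without library 2, 12 fell.

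The tricarboxylic acid cycle list held no call among 22 genes, where 3.82% of all genes tested were called. In TAC 15 of its genes fell, where 13.0% of all genes tested did. The list's medians were -0.28 with the inhibitor and -0.43 in TAC. Its enzymes Suclg1 (-0.39 ± 0.14, adjusted p = 0.0866) and Idh3a (-0.33 ± 0.12, adjusted p = 0.105) fell in TAC and did not pass with the inhibitor. Pdk4, the kinase that shuts off pyruvate dehydrogenase, had the lowest p of the list with the inhibitor (-1.15 ± 0.36, adjusted p = 0.067) and ranged widely within sham, from 255 to 1019 CPM. No gene of ketone and branched-chain amino acid breakdown was called among 22, against 14 falls in TAC. Acadsb was -0.29 ± 0.10 (adjusted p = 0.0862), Bckdhb -0.41 ± 0.16 (adjusted p = 0.117) and Ppm1k -0.37 ± 0.19 (adjusted p = 0.223).

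Among 18 regulators of mitochondrial genes, Pparg, a nuclear receptor for fatty acids, fell by 0.61 (adjusted p = 0.0239), from 11.1 to 16.9 CPM to 7.62 to 11.5 CPM, median 9.23. In TAC 9 of the 18 fell. The coactivator Ppargc1b was 0.017 ± 0.092 with the inhibitor (adjusted p = 0.922) and fell in TAC (-0.43 ± 0.10). The receptor Rxra was -0.062 ± 0.093 (adjusted p = 0.689) and fell in TAC (-0.39 ± 0.10). The tested difference between the inhibitor group and TAC was 0.45 ± 0.092 for Ppargc1b (adjusted p = 0.254) and did not pass. In glycolysis and glucose transport 1 of 23 was called, where 3.82% of all genes tested were. It was Pfkfb1, the liver and muscle form of the enzyme that sets fructose 2,6-bisphosphate. Pfkfb1 was 11.8, 9.32, 14.3, 15.4 and 11.3 CPM in sham and 4.55, 3.85, 1.72, 2.01, 6.37 and 6.87 CPM with the inhibitor, all 6 lower (-1.56 ± 0.42, adjusted p = 0.0477). Ldhb (-0.35 ± 0.16, adjusted p = 0.164) and Pfkp (0.55 ± 0.26, adjusted p = 0.177), which fell and rose in TAC, did not pass. The Pfkfb1 call ended without any 1 of the 5 sham libraries or inhibitor libraries 1, 3 and 4, and the Pparg call without sham library 2 or 3 or inhibitor library 3 or 4.

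No gene of calcium handling and ion channels was called among 32, with a median change of -0.23, against 17 falls and a median of -0.42 in TAC. Over all genes tested, 3.82% were called with the inhibitor, so no call among 32 is close to that share, and 13.0% fell in TAC. Atp2a2, the pump that returns calcium to the sarcoplasmic reticulum, was 20861, 19220.1, 18798, 21324 and 18307 CPM in sham and 14522, 14116, 10882, 10568, 17505 and 19474 CPM with the inhibitor. Library 6 lay within sham, library 5 just below it, and libraries 2, 3 and 4 inside the TAC range of 6995 to 14295 CPM (-0.44 ± 0.17, adjusted p = 0.11). Kcnh2, a repolarising potassium channel, was -0.37 ± 0.16 (adjusted p = 0.153) beside -0.92 ± 0.17 in TAC. Srl, a calcium-binding protein of the reticulum, had the lowest p of the list with the inhibitor (-0.37 ± 0.12, adjusted p = 0.0666).

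The sarcomere list held no call among 22 genes, against 4 rises and 5 falls in TAC, where 3.82% and 25.2% of all genes tested were called. Myh6, the fast alpha-myosin of the adult mouse heart, was 42256 to 48842 CPM in sham and 39964, 36482, 28237, 30078, 42743 and 47896 CPM with the inhibitor (-0.27 ± 0.18, adjusted p = 0.332), beside -0.72 ± 0.19 in TAC. Tnni3, cardiac troponin I, was -0.40 ± 0.16 (adjusted p = 0.112), and Myom2, an M-band protein, was 0.43 ± 0.13 (adjusted p = 0.0645). No calcineurin, NFAT, MEF2, CaMKII or HDAC gene was called among 27, which is close to the 3.82% of all genes tested. Rcan1, a feedback inhibitor of calcineurin and a common readout of its activity, was 80.9 to 131 CPM in sham and 78 to 219 CPM with the inhibitor, median 142 (0.52 ± 0.39, adjusted p = 0.398), beside 1.64 ± 0.41 in TAC. The transcription factor Gata6 was -0.064 ± 0.10 (adjusted p = 0.706) with the inhibitor and fell in TAC (-0.46 ± 0.11), and the kinase gene Camk2g was 0.15 ± 0.053 (adjusted p = 0.0931).

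In adrenergic and renin-angiotensin signalling, 1 of 24 genes was called, where 3.82% of all genes tested were. Agt, the precursor of angiotensin, was 3.44, 4.83, 4.54, 5.41 and 4.84 CPM in sham and 2.1, 3.08, 1.58, 1.14, 3.26 and 2.93 CPM with the inhibitor, all 6 lower (-0.98 ± 0.27, adjusted p = 0.048). The converting enzyme Ace was higher in every inhibitor library, at 93.6 to 261 CPM, median 142, than in sham, at 71.1 to 86.8 CPM, and missed the threshold (1.02 ± 0.29, adjusted p = 0.0514). Adcy6, a cardiac adenylyl cyclase, was -0.31 ± 0.12 (adjusted p = 0.101) and fell in TAC (-0.66), where 3 members rose and 8 fell. Leaving out any 1 sham library, or inhibitor library 1, 3 or 4, ended the call of Agt.

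Among 27 redox genes 1 was called, where 3.82% of all genes tested were. It was Nox4, the NADPH oxidase that releases hydrogen peroxide (chromosome 7, 87246096 to 87398710, plus strand). Nox4 was 2.04, 2.07, 2.16, 3.64 and 2.9 CPM in sham and 19.9, 8.51, 24.7, 31.6, 8.36 and 2.89 CPM with the inhibitor. Libraries 1, 3 and 4 reached or passed the TAC levels of 16.8 to 25.9 CPM, libraries 2 and 5 sat midway and library 6 within sham. The rise of 2.63 ± 0.46 (adjusted p = 0.0102) was called in each of the 11 leave-one-out fits (adjusted p up to 0.0481). Nox4 lost its call in 3 other settings, with adjusted p up to 0.0760. These were sham and inhibitor libraries fitted alone, ear tag series added to the fit, and inhibitor libraries 1 and 4 both left out. The glutathione peroxidases Gpx3 (0.58 ± 0.22, adjusted p = 0.105) and Gpx1 (0.20 ± 0.14, adjusted p = 0.353) rose in TAC and did not pass with the inhibitor.

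Interferon-stimulated genes gave 6 rises among 26, with a median change of 0.60, and 10 rises in TAC, with a median of 0.41. Of all genes tested, 2.17% rose with the inhibitor and 12.2% in TAC. Library 1 was highest: the mean of the 26 genes, as log2 CPM minus the sham mean, was 1.44, 0.50, 0.53, 0.83, 0.14 and -0.052 in inhibitor libraries 1 to 6, against 0.31 to 0.95 in TAC. Gbp3, an interferon-induced GTPase, was 17.1, 13.4, 14.7, 13.1 and 16 CPM in sham and 70.9, 19.98, 22.3, 23.3, 20.2 and 23.2 CPM with the inhibitor, with all 6 above sham and library 1 far above the rest (1.02 ± 0.27, adjusted p = 0.0444). Zbp1, a sensor of nucleic acids, rose by 1.44 ± 0.37 (adjusted p = 0.0363), also without overlap, from 0.56 to 0.968 CPM to 1 to 4.05 CPM. Oasl2 (0.88 ± 0.21, adjusted p = 0.0301), Ifit2 (0.70 ± 0.18, adjusted p = 0.036), Ifit3 (1.16) and Dhx58 (0.74), antiviral effectors and an RNA sensor, were the other rises. Isg15 (0.95 ± 0.28, adjusted p = 0.0583) and Mx1 (1.43 ± 0.44, adjusted p = 0.0625) rose in TAC and missed the threshold with the inhibitor.

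Ciita, the master regulator of MHC class II genes, was the 1 call among 10 genes of class II presentation, at 1.89, 1.68, 1.56, 2.39 and 2.21 CPM in sham and 7.78, 3.5, 3.07, 10.2, 3.22 and 2.8 CPM with the inhibitor, all 6 higher (1.38 ± 0.31, adjusted p = 0.0273). In TAC it was 0.73 ± 0.32 (adjusted p = 0.0933). The class II chaperones H2-DMb2 (0.48 ± 0.41, adjusted p = 0.459) and H2-Ob (0.49 ± 0.26, adjusted p = 0.236) rose in TAC and did not pass with the inhibitor. The 6 interferon calls dropped to 1 without inhibitor library 1 and to none without library 3 or 4 or any 1 of sham libraries 1 to 4, and numbered 13, 17 and 19 without inhibitor libraries 2, 5 and 6. The Ciita call ended without inhibitor library 1 or 4 or any 1 of sham libraries 1 to 4. Libraries 1 and 4, the pair with the highest Rn45s shares, were also the highest for Ciita and for the interferon score, and the part of Rn45s in either was not tested.

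Among 30 inflammatory and chemokine genes, 2 fell and none rose, where 1.65% of all genes tested fell. Ccl6, a chemokine of resident myeloid cells, was 12.4, 18.6, 22.9, 17.2 and 23.8 CPM in sham and 6.93, 10.7, 10.7, 4.93, 8.32 and 8 CPM with the inhibitor, all 6 lower (-1.20 ± 0.20, adjusted p = 0.00919), and its neighbour Ccl9 changed by -0.69 ± 0.19 (adjusted p = 0.048). The call of Ccl6 was kept in each leave-one-out fit, with adjusted p up to 0.0367, and that of Ccl9 was kept in 3 of the 11. In the 3 settings that ended the Nox4 call, Ccl6 lost its call too, with adjusted p up to 0.0588. The eosinophil chemokine Ccl11 was -1.81 ± 0.61 (adjusted p = 0.0803) and the macrophage lectin Lgals3 1.38 ± 0.59 (adjusted p = 0.143). In TAC they changed by -3.70 and 2.46, both called. Macrophage markers held no call among 11 tested, with a summed level of 395 to 539 CPM in sham and 357 to 608 CPM with the inhibitor.

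Wnt genes gave 4 rises and 1 fall among 23, and in TAC 9 rises and 3 falls. Of all genes tested, 3.82% were called with the inhibitor and 25.2% in TAC. Sfrp2, a secreted Wnt antagonist made by fibroblasts (chromosome 3, 83766321 to 83774316, plus strand), was 2.46, 1.86, 1.71, 3.69 and 2.63 CPM in sham and 25.4, 6.04, 29.9, 62.1, 7.52 and 3.98 CPM with the inhibitor, without overlap (3.17 ± 0.63, adjusted p = 0.0234). The secreted modulators Dkk3 (2.61 ± 0.58, adjusted p = 0.0273) and Frzb (1.67) and the receptor Fzd2 (1.10 ± 0.28, adjusted p = 0.0385) rose too, and the receptor Fzd8 changed by -0.52 ± 0.13 (adjusted p = 0.0363). The antagonist Sfrp1 (1.42 ± 0.41, adjusted p = 0.0519) and the ligand Wnt5a (-0.46 ± 0.17, adjusted p = 0.0976) did not pass. All 5 calls ended without sham library 1, 2 or 3 or inhibitor library 3 or 4.

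Among 32 growth factor and receptor genes, 4 rose and none fell, where 2.17% of all genes tested rose. Igfbp5, a binding protein for insulin-like growth factors, was 74.6, 60.5, 44.9, 64.7 and 59.3 CPM in sham and 167, 96.9, 191, 135, 118 and 123 CPM with the inhibitor, without overlap (1.19 ± 0.22, adjusted p = 0.0176). Here libraries 5 and 6 were no lower than library 2, and the TAC change was 1.18 ± 0.23. Its relative Igfbp3 (1.02 ± 0.28, adjusted p = 0.0495) and the platelet-derived growth factor receptors Pdgfra (0.60 ± 0.15, adjusted p = 0.0349) and Pdgfrb (0.29 ± 0.081, adjusted p = 0.0491), which mark fibroblasts and pericytes, rose as well. Pdgfrb was the 1 call among 8 pericyte markers, of which 3 were higher and 5 lower with the inhibitor, with a median change of -0.18. Igfbp7 (0.86 ± 0.32, adjusted p = 0.102) and the receptor Met (0.35 ± 0.23, adjusted p = 0.328) rose in TAC and did not pass with the inhibitor. On leaving out 1 library, the Igfbp5 call ended only for sham library 3. It was also lost with ear tag series added to the fit, and with inhibitor libraries 1 and 4 both left out. The calls of the other rises ended without sham library 1, 2, 3 or 4 or inhibitor library 1, 3 or 4.

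Genes for cytosolic ribosomal proteins gave 5 falls among 36, with a median change of -0.092, where 1.65% of all genes tested fell. These were Rps2 (-0.36 ± 0.085, adjusted p = 0.0301), Rpl27 (-0.21 ± 0.051, adjusted p = 0.0301), Rpl38 (-0.22 ± 0.055, adjusted p = 0.0339), Rpl24 (-0.23 ± 0.059, adjusted p = 0.0376) and Rpl15 (-0.21). Ribosomal protein genes have many near-identical pseudogene copies, so their counts are uncertain, and none of the 5 was called without sham library 1, 2, 3 or 4 or inhibitor library 3 or 4. Rpl22 (0.12 ± 0.059, adjusted p = 0.183) and Rpl3 (0.19 ± 0.18, adjusted p = 0.517) rose in TAC and did not pass with the inhibitor.

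The remaining lists held little that passed, where 3.82% of all genes tested were called. Among 20 ubiquitin ligase and autophagy genes Fbxo30, a ligase that acts in muscle wasting, rose by 0.25 ± 0.064 (adjusted p = 0.0376), and the muscle ligase Fbxo40 (0.22 ± 0.092, adjusted p = 0.128) and the autophagosome protein gene Map1lc3a (-0.23 ± 0.10, adjusted p = 0.154) did not pass. None of 24 tubulin and cytoskeletal genes was called, against 10 rises and 2 falls in TAC, with Synm, an intermediate filament protein, at 0.47 ± 0.13 (adjusted p = 0.0501) and higher in all 6 libraries, Ttl, the tubulin tyrosine ligase, at 0.17 ± 0.047 (adjusted p = 0.052), and Tubb3 at 1.03 ± 0.59 (adjusted p = 0.262) beside 2.71 ± 0.60 in TAC. No cell cycle gene was called among 32. The kinetochore gene Cenpf was 68, 81.6, 23.6, 47.4 and 103 CPM in sham and 19.1, 11.7, 14.7, 14.2, 29.9 and 96.5 CPM with the inhibitor, where library 6 stood near the top of the sham range, library 5 inside it and the other 4 below it. Its change of -1.07 ± 0.46 did not pass (adjusted p = 0.146), while it fell in TAC to 7.79 to 14.3 CPM, and the cyclin Ccnd3 was -0.27 ± 0.083 (adjusted p = 0.0638). Circadian genes held no call among 20, with Npas2 at 0.81 ± 0.34 (adjusted p = 0.141), Cry2 at -0.23 ± 0.15 (adjusted p = 0.333) and Hlf at -0.28 ± 0.32 (adjusted p = 0.588). None of 23 immediate early genes was called either, with Jund lowest in p (0.41 ± 0.16, adjusted p = 0.117).

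The largest rises without overlap between the groups, beyond Myh7, Sfrp2 and Wisp2, included Itgbl1, Frem1, Itih2, Pdgfrl, Ptn, Gabra3 and Gcnt4. Itgbl1, a secreted protein related to integrin beta chains, was 11.6, 13.5, 12.8, 15.6 and 14.5 CPM in sham and 59, 43.3, 95, 105, 34.5 and 17.4 CPM with the inhibitor (2.12 ± 0.37, adjusted p = 0.00988). Frem1, a basement membrane protein, rose by 2.84 ± 0.72 (adjusted p = 0.0367), Itih2, a hyaluronan-binding plasma protein, by 2.69 ± 0.51 (adjusted p = 0.0184), and Pdgfrl, a receptor-like protein, by 2.21 ± 0.46 (adjusted p = 0.0257). The heparin-binding growth factor Ptn was 13.4, 1.89, 2.74, 14.9, 2.59 and 1.63 CPM with the inhibitor against 0.876 to 1.38 CPM in sham, with libraries 1 and 4 at the top (2.49 ± 0.59, adjusted p = 0.0316). Gabra3, a GABA receptor subunit, had the same 2 libraries and library 3 at the top, at 9.88, 3.04, 9.49, 18.4, 5.69 and 2.8 CPM against 2.1 to 2.63 CPM (1.80 ± 0.43, adjusted p = 0.0303). Gcnt4, a glycosyltransferase, rests on few counts, at 0.035 to 0.261 CPM in sham and 0.385 to 2.58 CPM with the inhibitor (3.06 ± 0.70, adjusted p = 0.0277).

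The largest falls without overlap, beyond Pfkfb1, Ccl6, Rgs2, Sdf2l1 and Agt, included immune genes of low level. Retnla, a marker of alternatively activated macrophages, was 2.04, 2.66, 1.38, 2.07 and 2.36 CPM in sham and 0.107, 0.808, 0.409, 0.0379, 0.358 and 0.879 CPM with the inhibitor (-2.29 ± 0.57, adjusted p = 0.0339), where the lowest library holds 1 count. Fcna, the macrophage lectin ficolin A, was 2.39 to 4.59 CPM and 0.568 to 1.97 CPM (-1.40 ± 0.32, adjusted p = 0.0277). Tmem35, a membrane protein that helps assemble acetylcholine receptors, was 3.67 to 6.64 CPM in sham and 1.53 to 3.18 CPM with the inhibitor (-1.18 ± 0.28, adjusted p = 0.0316). Pirt, a regulator of TRP channels in sensory nerves, was 8.7 to 14.4 CPM and 4.77 to 7.6 CPM (-1.02 ± 0.25, adjusted p = 0.0317). Prrg4, a membrane protein with a vitamin K-dependent domain, was 2.84, 4.52, 2.98, 3.29 and 3.41 CPM in sham and 1.14, 1.96, 1.87, 1.44, 1.79 and 1.8 CPM with the inhibitor (-1.03 ± 0.17, adjusted p = 0.00919). Itgbl1 and Prrg4 kept their calls in each of the 11 leave-one-out fits. Both lost them with the 2 groups fitted alone and with inhibitor libraries 1 and 4 both left out. Adding ear tag series to the fit ended the call of Itgbl1 too. Itih2 lost its call without sham library 3 or inhibitor library 3. The calls of Frem1, Pdgfrl, Ptn, Gabra3, Gcnt4, Retnla, Fcna, Tmem35 and Pirt each ended without sham library 1, 2 or 3. The same calls each ended without inhibitor library 3 or 4.

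**Figure D5:**
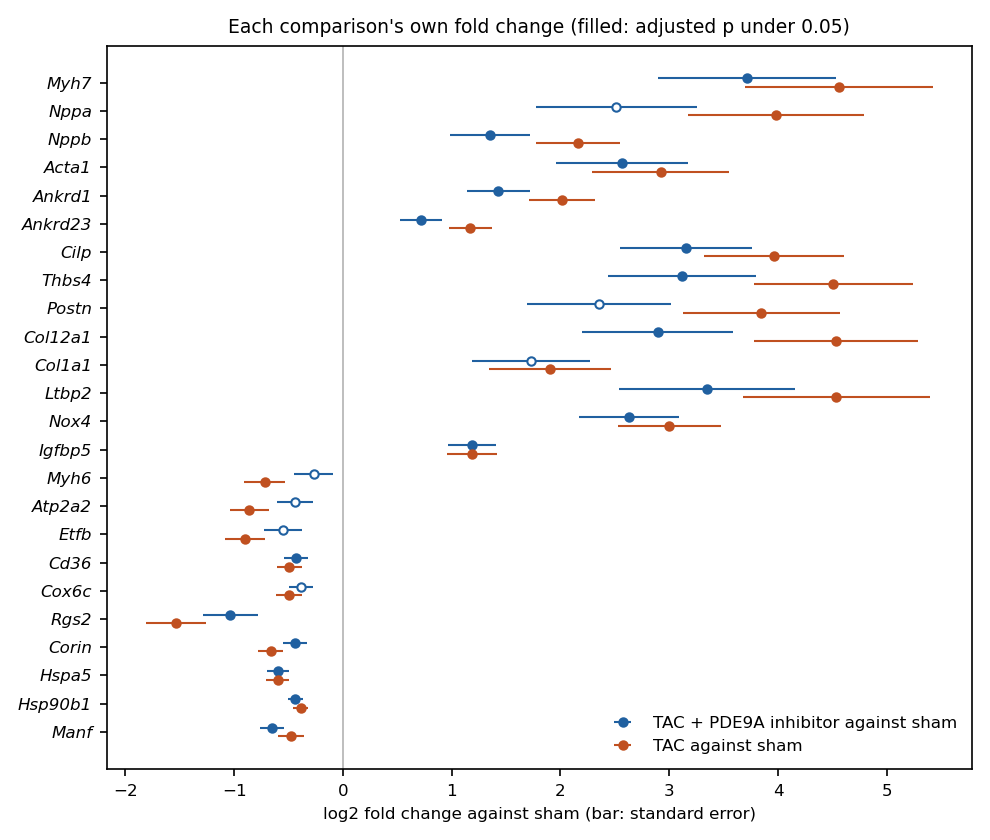
Log2 fold change against sham with its standard error for 24 genes, in the PDE9A inhibitor group (blue) and in TAC (orange), filled where the adjusted p is under 0.05. The 2 comparisons share the sham libraries, and the open blue points (Nppa, Postn, Col1a1, Myh6, Atp2a2, Etfb and Cox6c) are genes called in TAC and not with the inhibitor.

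Being called in TAC and not with the inhibitor does not show that the groups differ, and the direct test found 1 difference among 14135 genes (0.00707%), with 2061 at an unadjusted p under 0.05 (14.6%) and 33 called by DESeq2. That gene was Cd79a, a chain of the B cell receptor complex (chromosome 7, 24897381 to 24902197, plus strand), at 0.249, 0.231, 0.175, 0.152, 0.199 and 0.251 CPM with the inhibitor, 0.893, 0.584, 0.578, 0.624 and 0.556 CPM in TAC libraries 1 to 5 and 0.265, 0.455, 0.186, 0.265 and 0.348 CPM in sham. The inhibitor libraries lay below every TAC library, 4 of them within the sham range and libraries 3 and 4 below it, and the difference from TAC was -1.62 ± 0.25 (adjusted p = 0.0286). All 5 tested B cell markers, of 8 listed, rose in TAC and none was called with the inhibitor. Their summed level was 1.44 to 3.29 CPM in sham, 1.3 to 2.49 CPM with the inhibitor and 3.76 to 6.18 CPM in TAC. The Cd79a call rests on few counts. Cd79a passed the filter on low counts through the groups where it is high, and was not tested in a fit of sham and inhibitor libraries alone. Markers this low can enter the test through their TAC levels, so the 5 rises in TAC are not separate support. Without that filter no gene was called against TAC. No gene was called on leaving out any 1 TAC library or any 1 inhibitor library other than library 2, without which 46 genes were called, Cd79a among them. For Nppa the difference from TAC was -1.47 ± 0.69 (adjusted p = 0.338), for Postn -1.50 ± 0.62 (adjusted p = 0.294) and for Atp2a2 0.42 ± 0.17 (adjusted p = 0.291).

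The ear tag numbers fall into series that split unevenly over the groups: sham libraries 1 to 3 and inhibitor library 1 carry tags of the 100 series, sham libraries 4 and 5 and inhibitor library 6 of the 600 series, and inhibitor libraries 2 to 5 of the 500 series, which holds no sham animal. Within the 100 series the inhibitor library exceeded the sham mean by 1.42 in the matricellular score and 1.45 in the interferon score, and within the 600 series by -0.095 and -0.062. The fetal score differed by 0.56 and 0.28, and the oxidative phosphorylation score by -0.41 and -0.0068, in the same order. For the score of all 27 unfolded protein response and chaperone genes the differences were 0.037 and -0.11. Each of these rests on 1 inhibitor library. With ear tag series as a term in the fit of all libraries, 6 genes were called, 3 in each direction, and none of them was in the fetal, matrix or chaperone lists.

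A small set of genes was called whichever single animal was left out. Of the 540, 20 were called in every one of the 11 fits that left out 1 library, and 3 in all 18 alternatives: Ano10, 2210407C18Rik and Ypel2. These names, and the 2 that follow, were chosen after their values were seen. Ano10, a member of the anoctamin membrane protein family, was 54, 51.7, 49, 43.4 and 45 CPM in sham and 30.7, 24.8, 27.1, 27.4, 31.5 and 34 CPM with the inhibitor (-0.73 ± 0.081, adjusted p = 0.000186), beside -0.95 ± 0.086 in TAC. Ypel2 was 22.4, 24.6, 20.6, 20.9 and 23.1 CPM and 36.1, 38.3, 36.7, 34.5, 36.9 and 36.3 CPM (0.71 ± 0.12, adjusted p = 0.00919), and the predicted gene 2210407C18Rik was 7.9, 8.83, 11.8, 3.11 and 5.81 CPM and 1.99, 0.885, 0.905, 1.78, 1.95 and 1.26 CPM (-2.36 ± 0.33, adjusted p = 0.00259). In all 3 the groups did not overlap, and libraries 5 and 6 lay with the other inhibitor libraries. Taking genes that stay called whichever library is left out favours such even levels, so this is not a separate result. Fabp4, a fatty acid binding protein of capillary endothelium, was 408, 494, 571, 481 and 455 CPM in sham and 314, 327, 275, 239, 308 and 327 CPM with the inhibitor (-0.69 ± 0.10, adjusted p = 0.00259), and Chordc1, a cochaperone of HSP90, was 47, 50.2, 52.7, 49.3 and 52.1 CPM and 36.7, 37.8, 37, 34.4, 41.2 and 40.8 CPM (-0.40 ± 0.057, adjusted p = 0.00259). Fabp4 is 1 of 2 falls among 12 endothelial markers, with Emcn (-0.36), and the summed level of that list was 1762 to 2105 CPM in sham and 1364 to 1864 CPM with the inhibitor.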

How the data were processed

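Libraries were made from left ventricular RNA with a stranded total RNA kit from 500 ng, per the labels' protocols. The authors deposited RSEM expected counts per gene in 1 table of 24054 rows, 19.0% of whose values carried decimals. The submitters' processing notes list the genome build mm10 and the tools RSEM 1.3.0, HISAT2 2.0.5, DESeq2 1.18.1 and CASAVA 1.8.4, with no role or order. For the annotation and the strand setting nothing was stated. Gene symbols of 27 rows were damaged into dates and left as they are.

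Counts were rounded to whole numbers, filtered with edgeR 4.0.16 filterByExpr by group (14135 genes left), scaled by TMM and fitted in R 4.3.3 with 1 mean per group over all 21 libraries. Contrasts were tested by edgeR's quasi-likelihood F-test with robust dispersions and Benjamini-Hochberg adjustment over all genes tested, and called at an adjusted p under 0.05. The tests measure the spread between these animals. Replicate libraries differed from each other beyond sampling noise in every pair (chi-square per degree of freedom of at least 12.1). List scores are mean log2 CPM with a prior count of 2. Coordinates are from GENCODE M21 (GRCm38), promoters from RefSeq. The script was tested on simulated counts.

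Named genes were the 10 largest rises and falls without overlap (predicted genes left out, mean of 1 CPM or more in the higher group), up to 4 called members per pathway list (or the one with the lowest p), up to 2 called in TAC and not with the inhibitor, genes called against TAC, and 14 genes of the overload and cyclic GMP literature. Further called list members are given by fold only and were added after their values were seen. The 28 pathway lists and the members were chosen with earlier results of these data known. Alternatives were RLE scaling, no filter on low counts, DESeq2 1.42.0, a fit of the compared groups alone, ear tag series as a term, the replicate number as a block, each library left out in turn, and both inhibitor libraries of high Rn45s left out together.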

Additional observations from a re-analysis of the deposited data

Results flagged for a closer look

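Single libraries stood far from the rest of their group in 19 of 350 groups of values tested by Dixon's ratio (5.43%), where chance alone gives about 5%. With the inhibitor, library 3 was far above the rest for Nppa (3090.0 CPM), Xirp2 (9335 CPM), Synm (34.8 CPM), Gdf15 (16.0 CPM) and Frem1 (14.3 CPM). Library 6 was far from the rest for Cenpf (96.5 CPM), Prkg1 (36.5 CPM), Rxra (104 CPM) and H2-Ob (0.461 CPM). Library 1 stood out for Gbp3 (70.9 CPM), and library 4 for Col8a2 (88.8 CPM) and for the score of the endothelial growth factor and receptor list (0.36 above the sham mean). In sham, library 1 stood apart for Tgfb3 (16.8 CPM), library 2 for Jund (69.9 CPM) and for the immediate early gene score (2.16), library 3 for Rxra (77.8 CPM) and the skeletal muscle score (-0.18), and library 5 for Mx1 (0.658 CPM) and Pdgfrb (126 CPM).

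Between the inhibitor group and TAC, the log2 fold change against sham of Cd79a differed by -1.62, the 1 gene that passed the direct test of that difference.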

How the results depend on the processing

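The count of genes called between the inhibitor group and sham moved with most settings. Against 540, it was 329 without a filter on low counts, 1550 with DESeq2, 17 in a fit of the 2 groups alone, 6 with ear tag series as a term, 2241 with the replicate number as a block and 18 without inhibitor libraries 1 and 4. Leaving out 1 library gave 21 to 1814 genes, lowest without sham library 3 and highest without inhibitor library 6. RLE scaling gave 529 with a median change over all genes of 0.0093, against 0.0051 as reported.

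For TAC against sham, leaving out 1 library gave 1781 to 4440 genes against 3558, with 1781 without TAC library 4 and 2019 without TAC library 3. For the inhibitor group against TAC, 1 gene was called, against 33 with DESeq2, 0 without a filter, in the 2 groups alone, with ear tag series as a term, with the replicate block or without inhibitor libraries 1 and 4, and 0 to 46 on leaving out 1 library. At an unadjusted p under 0.05 these fits held 1137 to 3136 genes.

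Labels number the libraries of each group and name no pairing. Deviations of same-numbered sham and inhibitor libraries from their group means correlated at -0.12, -0.035, -0.043, -0.13 and -0.22, and inhibitor library 6 has no partner. For same-numbered inhibitor and TAC libraries the correlations were 0.062, 0.025, 0.34, 0.43 and 0.22, so that 3 of 5 pairs exceeded 0.1. None of the 5 sham libraries correlated best with the inhibitor library of its own number, nor the reverse. Such correlations cannot settle whether animals were paired, since the deviations hold every difference between animals of a group. The replicate block gave 2241 genes between the inhibitor group and sham and 3896 between TAC and sham. Number 6 occurs only in the inhibitor group, so the block also takes inhibitor library 6 out of the comparison. Leaving out that library without a block gave 1814 genes between the inhibitor group and sham.

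Of the named genes' values under the alternatives, 1627 kept their direction and side of the threshold, 541 lost their call, 121 gained one and 12 changed sign, all in uncalled genes. Gata6 turned to 0.088 with ear tag series as a term. On leaving out 1 library, Npr1 ran from -0.085 to 0.050, Pde5a from -0.0086 to 0.12, Pde9a from -0.27 to 0.0086 and Ppargc1b from -0.026 to 0.087. Npr1 turned to 0.050 without sham library 5 and 0.012 without inhibitor library 5. Pde5a turned to -0.0086 without sham library 4. Pde9a turned to 0.0086 without sham library 5, 0.0035 without inhibitor library 1 and 0.088 without inhibitor libraries 1 and 4. Ppargc1b turned to -0.0056 with the replicate block, -0.026 without sham library 3, -0.020 without inhibitor library 5, -0.0022 without inhibitor library 6 and -0.0038 without inhibitor libraries 1 and 4. The cause of these shifts was not tested. Depth limits what can be said of Cd79a, Nos1, Gcnt4 and Retnla, which hold few counts.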
